A study of Homo sapiens with 2 samples.

Results

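The kinesin motor genes were examined in a chromatin immunoprecipitation and sequencing (ChIP-seq) peak list of the transcription factor MYBL2. The 42 genes were taken from a fixed list of names, 42 of 20087 protein-coding genes and of 38659 protein-coding and long non-coding RNA (lncRNA) genes in the annotation. They were sorted by known function into 14 mitotic kinesins, 15 transport kinesins, 6 ciliary kinesins and 7 others. Earlier results of these data were known when the members and lists were chosen, so the grouping was not blind to them. A peak was assigned to a gene where it overlapped 1000 bp either side of any annotated transcription start site (TSS) of that gene, and such a peak is called a promoter peak here.

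The study used A673, an established Ewing sarcoma cell line, which the sample titles call WT. Its series holds 1 library of chromatin precipitated with an anti-MYBL2 antibody, which the study's methods describe as directed against the phosphorylated form of the protein, and 1 input library of sheared chromatin without antibody. Each group had 1 library of 1 cell line, so no difference was tested and every value below describes that pair of libraries. No gene expression values were analysed here, and the cell label was not checked against marker genes. The list held 66954 peaks on the hg19 build, of which 22943 lay at promoters, and 80 were promoter peaks of kinesin genes.

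Kinesins are motor proteins that use ATP to move along microtubules or to shorten them. One set builds the spindle, moves chromosomes and completes cell division, and its genes are transcribed mainly late in the cell cycle. The others carry vesicles, organelles and messenger RNAs, work in cilia or regulate microtubule growth, and several of them are used mostly by neurons. MYBL2 (B-Myb) is known to join the MuvB complex at promoters of late cell cycle genes. MuvB itself contacts a short promoter element named CHR (cell cycle genes homology region), which is often found downstream of CCAAT boxes, the sites of the factor NF-Y.

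The promoter letters that the mitotic kinesins shared are printed first, since the lists differed in them. The CHR was searched as TTTGAA or TTCGAA and the NF-Y box as CCAAT, on both strands, between 250 bases before and 50 bases after the canonical TSS of each gene. The stretches are from the GRCh37 assembly (the hg19 coordinates), 5′ to 3′ on the strand of the gene, and capitals mark letters of a CHR or an NF-Y box in either orientation. Where the annotation places untranslated exon in the stretch, only 30 bases around the CHR are shown. KIF4A was read from chrX:69509888-69509933, KIF11 from chr10:94352826-94352872, KIF14 from chr1:200589861-200589890, KIF15 from chr3:44803239-44803268 and KIF18A from chr11:28129704-28129756. KIF18B was read from chr17:43025122-43025151, KIF20B from chr10:91461359-91461388, KIF22 from chr16:29802033-29802062, KIF23 from chr15:69706621-69706650 and KIFC1 from chr6:33359592-33359621. KIF14, KIF18A and KIF18B lie on the minus strand and the other 7 on the plus strand.
KIF4A: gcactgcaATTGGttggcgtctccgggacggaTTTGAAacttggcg
KIF11: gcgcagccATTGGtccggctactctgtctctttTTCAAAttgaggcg
KIF14: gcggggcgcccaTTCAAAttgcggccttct
KIF15: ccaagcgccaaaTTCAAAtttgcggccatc
KIF18A: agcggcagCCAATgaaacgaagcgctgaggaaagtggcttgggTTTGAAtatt
KIF18B: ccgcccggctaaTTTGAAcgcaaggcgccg
KIF20B: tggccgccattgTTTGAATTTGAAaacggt
KIF22: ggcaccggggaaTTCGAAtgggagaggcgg
KIF23: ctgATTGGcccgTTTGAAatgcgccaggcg
KIFC1: tggccgttggaaTTCAAAagtggcgggtgt

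A CHR was present in 10 of 14 mitotic kinesin promoters, against 1 of the 14 transport kinesins with a canonical TSS and 12.8% of 19809 protein-coding promoters. All 10 had it within 55 bp of the TSS, at a median distance of 26.0 bp, whereas 29.1% of the 2529 protein-coding promoters with a CHR had one that near. An NF-Y box was present in 10 of 14 mitotic and 3 of 14 transport promoters, against 36.0% of all. Both a CHR and an NF-Y box were present in 9 of 14 mitotic promoters, in 1 of 14 transport promoters and in 5.44% of all. In those 9 the NF-Y box nearest to the CHR lay upstream of it, and in 8 of them within 60 bp (first base to first base), against 23.3% of the 1078 protein-coding promoters that held both. The limit of 55 bp was the largest distance among the mitotic promoters, so all 10 met it by construction. The limit of 60 bp was also chosen after the positions had been seen. KIF20B carried its CHR in tandem, as its line shows.

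CHR letters were absent from this window in 4 of 14 mitotic kinesins. KIF20A held NF-Y boxes upstream of its TSS in place of them, read from chr5:137514699-137514746 on the plus strand. It also held a MYB site that begins 187 bp upstream of its TSS, outside the printed stretch. KIF2B held only a MYB site, and KIF2C and CENPE held none of the elements searched. Of the transport kinesins, KIF5B had a CHR 140 bp upstream of its TSS on chr10:32345480-32345501 of the minus strand, and KIF1B had a pair of NF-Y boxes on chr1:10270463-10270514 of the plus strand. These are shown as the nearest counterparts among genes outside the CHR group.
KIF20A: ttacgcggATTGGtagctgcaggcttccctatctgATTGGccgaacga
KIF5B: cagtaaaaTTTGAAtctgcgac
KIF1B: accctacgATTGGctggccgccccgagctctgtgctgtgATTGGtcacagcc

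The remaining elements separated the lists less. MYB sites (CAACTG or CAACGG or TAACTG or TAACGG) were in 4 of 14 mitotic and 2 of 14 transport promoters, against 23.9% of all. E2F sites (TTTCCCGC or TTTCGCGC or TTTGCCGC or TTTGGCGC) were in 1 and 0 promoters, against 4.37%. The ETS letters CCGGAAGT were in 3 and 0 promoters, against 6.18%. Of the 13 ciliary and other kinesins, KIF24 and KIF26B held a CHR. KIF5C has no canonical TSS in the annotation and was not searched. A match of letters is a description and not a site of binding.

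**Figure D1:**
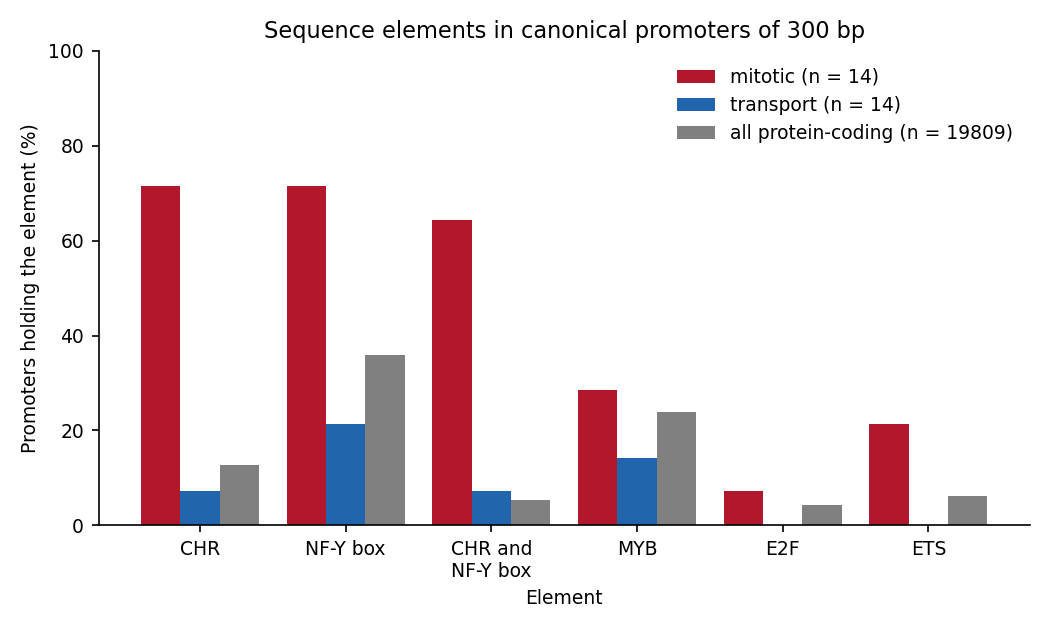
Bars give the percentage of canonical promoters (300 bp) that held each sequence element, for 14 mitotic kinesins, 14 transport kinesins and 19809 protein-coding genes. The mitotic bars stand above both others for the CHR, for the NF-Y box and for the CHR together with the NF-Y box. They stand near the protein-coding bars for the MYB site.

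At the peaks themselves, 34 of 42 kinesin genes had a promoter peak, where 59.4% of protein-coding genes had one. The mitotic list was occupied in 13 of 14 genes and the transport list in 11 of 15. Strength separated the lists further. Fold enrichment is the authors' ratio of fragments at the summit to the local background, with the same constant added to both. It is therefore smaller than the plain quotient of the fragment and background values printed below. For each gene the largest value among its promoter peaks was used. A value of at least 10 was reached by 11 of 14 mitotic and 5 of 15 transport kinesins, against 23.1% of protein-coding genes. The median over bound genes was 13.5 for mitotic kinesins, with a range of 7.04 to 20.4, and 6.74 for transport kinesins, with a range of 4.02 to 20.7. All bound protein-coding genes had a median of 8.67, so the mitotic median lay above that of all bound genes and the transport median below it. With peaks of fold enrichment of at least 5 only, the transport median was 10.4 and lay above that of all bound genes, 9.66.

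The depth behind these values was recovered from the list. Whole fragment counts at the summit (pileups) solved the deposited fold enrichment and p of all 66954 peaks. The intervals given with each peak are exact Poisson intervals at 95% on the ChIP pileup, with the background held fixed. They reflect the error of counting ChIP fragments alone and leave out that of the input count. There is no replicate, and copies of 1 fragment may be counted more than once. Of the 143 pairs of 1 mitotic and 1 transport best peak, the mitotic interval lay wholly above in 70, the transport interval wholly above in 9, and the intervals overlapped in 64. Each gene enters many of these pairs, so the pairs are not independent of each other. A matching share over pairs of all bound protein-coding genes was not computed, so these counts have no background beside them. Ordered by fold enrichment, all 33 neighbouring pairs among the 34 bound kinesins had overlapping intervals, so the rank of any gene against the next was not resolved.

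**Figure D2:**
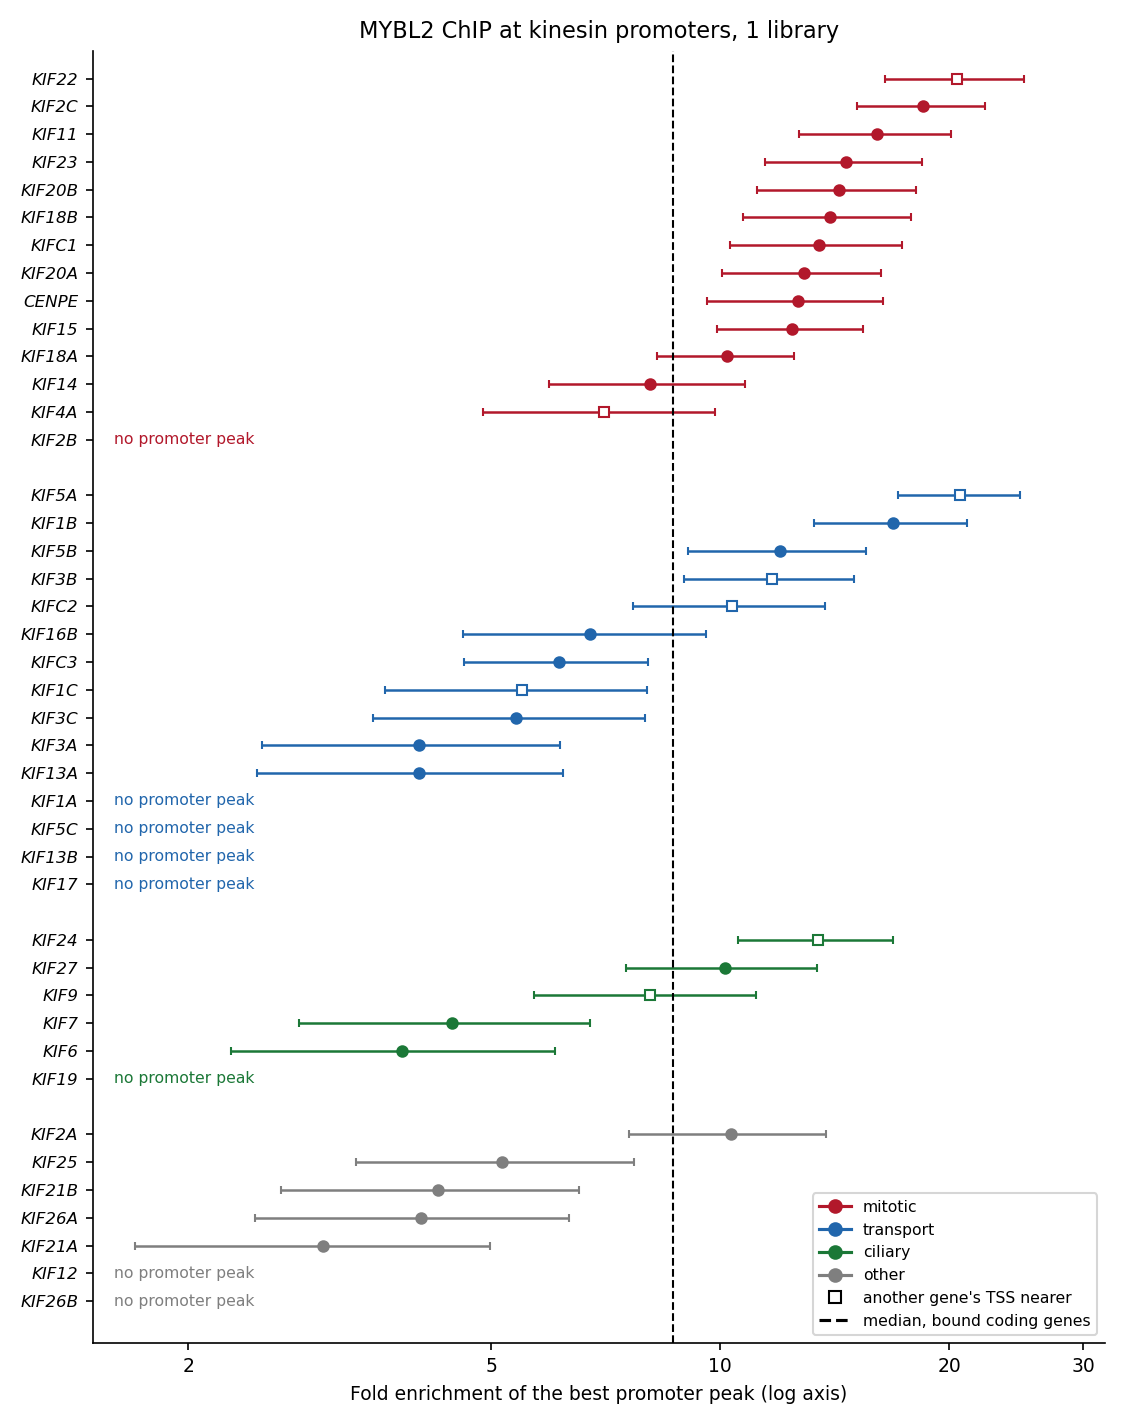
Each point is the fold enrichment of the best promoter peak of 1 gene (log axis) with its exact Poisson interval at 95%, and open squares mark summits that lie nearer to the TSS of another gene. The intervals of 10 of 13 mitotic kinesins lie wholly above the dashed median of bound protein-coding genes, 8.67, against 4 of 11 transport intervals, while 5 transport intervals lie wholly below it. The same counts were not made over all bound protein-coding genes.

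Promoters rich in CpG carried peaks more often than CpG-poor ones, of which 22.2% were bound, and the lists were therefore also read within them. Of 13194 CpG-rich protein-coding genes (observed to expected CpG of at least 0.6 within 500 bp of the canonical TSS), 79.2% had a promoter peak and 32.7% one of fold enrichment of at least 10. Of the 36 CpG-rich kinesins of all lists, 31 were bound (86.1%), near the share of CpG-rich genes, and 17 reached 10 (47.2%). All 12 CpG-rich mitotic kinesins were bound and 10 of them reached 10, while 10 of 13 CpG-rich transport kinesins were bound and 4 reached 10. The share of bound transport kinesins was thus close to that of CpG-rich genes in general.

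**Figure D3:**
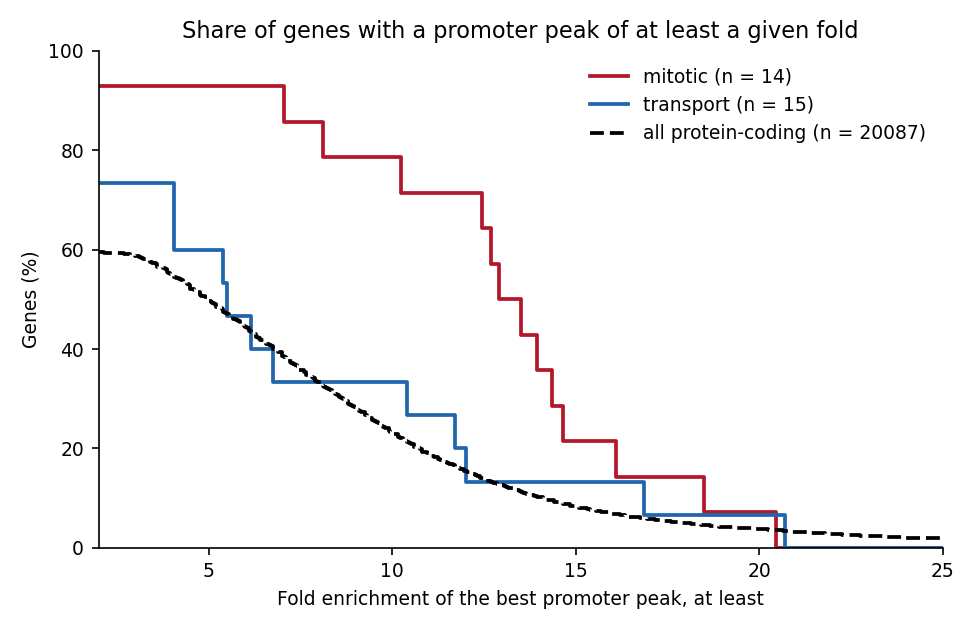
Lines give the percentage of genes whose best promoter peak reached at least the fold enrichment on the horizontal axis, for 14 mitotic kinesins, 15 transport kinesins and 20087 protein-coding genes. At 10 the lines stand at 78.6% for mitotic kinesins, 33.3% for transport kinesins and 23.1% for all.

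Among the mitotic kinesins, the motors that form and balance the bipolar spindle were bound. KIF11 (Eg5), the motor that slides spindle poles apart, had a summit 61 bp upstream of its canonical TSS, in a peak on chr10:94352382-94353785. Its fold enrichment was 16.1 (12.7 to 20.1), from a pileup of 75 fragments (59.0 to 94.0) over a background of 3.73, and 88.5% of bound protein-coding genes had a weaker best promoter peak. The gene carried 3 further promoter peaks, at 11.0 by an upstream TSS, at 2.82, and at 6.06 beside the TSS of IDE. The summit of the main peak lay 33 bp from the CHR printed above. KIF15, which can share the work of KIF11, had a fold enrichment of 12.4 in a promoter shared with KIAA1143. KIFC1 (HSET), a minus-end motor that clusters spindle poles, had 13.5 at 1 bp from its TSS, with the CHR 5 bp away and 4 weaker promoter peaks of 3.0 to 3.82.

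KIF2C (MCAK), which removes tubulin from microtubule ends at centromeres, had the strongest mitotic peak that lay at its own TSS. The peak on chr1:45204802-45205895 had a fold enrichment of 18.5 (15.1 to 22.3) and a pileup of 105 (85.9 to 127) over a background of 4.74. Its summit lay 22 bp downstream of the canonical TSS, in untranslated exon. The peak reached this fold enrichment with no CHR, NF-Y, MYB, E2F or ETS letters in the canonical window. KIF2B, a related microtubule depolymerase, was the 1 mitotic kinesin without a promoter peak, and no peak fell anywhere in its gene of 2.27 kb. KIF18A, which dampens chromosome movements at kinetochores, had 10.2 and KIF18B, which acts on astral microtubules, had 13.9. The summits of both lay on the letters of their CHR. The promoter of KIF18A is shared with METTL15, whose TSS lay 82 bp from the summit.

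The chromosome-bound and kinetochore motors were also occupied. CENPE, which moves chromosomes toward the spindle equator, had 12.7. KIF22 (Kid), which pushes chromosome arms outward, had the largest mitotic value, 20.4 (16.5 to 25.1), with a pileup of 90 (72.4 to 111) over a background of 3.45 on chr16:29814430-29817271. That summit lay 900 bp from an internal KIF22 TSS and 512 bp from the TSS of MAZ, 14843 bp from the canonical start of KIF22. At the canonical start a separate peak on chr16:29801290-29802628 had 13.03 (9.92 to 16.8), from a pileup of 57, and this is the value that sits over the CHR shown for KIF22. KIF4A, a chromokinesin that also shapes the central spindle, had the weakest bound mitotic promoter, 7.04 (4.88 to 9.85), 2 bp from the TSS of PDZD11 and 175 bp from its own.

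The motors of the central spindle and cytokinesis closed the list. KIF23 (MKLP1), a subunit of centralspindlin, had a peak on chr15:69706244-69707553 with a fold enrichment of 14.6 (11.4 to 18.4), a pileup of 70 (54.6 to 88.4), a background of 3.86 and a summit 3 bp from a TSS of the gene. KIF20A (MKLP2), which brings the chromosomal passenger complex to the central spindle, had a broad peak of 2100 bp on chr5:137513754-137515853. Its fold enrichment was 12.9 (10.1 to 16.2), with a pileup of 69 (53.7 to 87.3) over a background of 4.44 and a summit 23 bp from a KIF20A TSS. BRD8 starts on the other strand, 239 bp from that summit. KIF20B (MPP1), a motor of late cytokinesis, had 14.3 (11.2 to 18.1), also from a pileup of 69, on chr10:91460678-91461833 over a background of 3.89, with a summit 44 bp from a TSS, in an intron of the canonical transcript. KIF14, which positions citron kinase at the midbody, had 8.10 (5.95 to 10.8), below the median of bound genes although its promoter held the CHR, the NF-Y box and the ETS letters.

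Mitotic summits lay close to the start of their own genes. The best summit was within 100 bp of an own TSS in 11 of 13 mitotic and 4 of 11 transport kinesins, against 58.6% of bound protein-coding genes. The median distance was 23 bp for mitotic, 123 bp for transport and 73.0 bp for all bound genes. Where the summit and the CHR of a mitotic kinesin were on the same promoter, which held for 9 genes, they were 0 to 141 bp apart with a median of 33.0 bp. Within 50 bp of the best summit, CHR letters were present at 5 of 13 mitotic and 0 of 11 transport summits, against 6.41% of all promoter peaks. NF-Y boxes were at 4 of 13 and 3 of 11 summits, against 10.4%. MYB letters were at 2 of 13 and 3 of 11, against 9.31%. The shares over all promoter peaks include the weaker peaks of a gene.

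**Figure D4:**
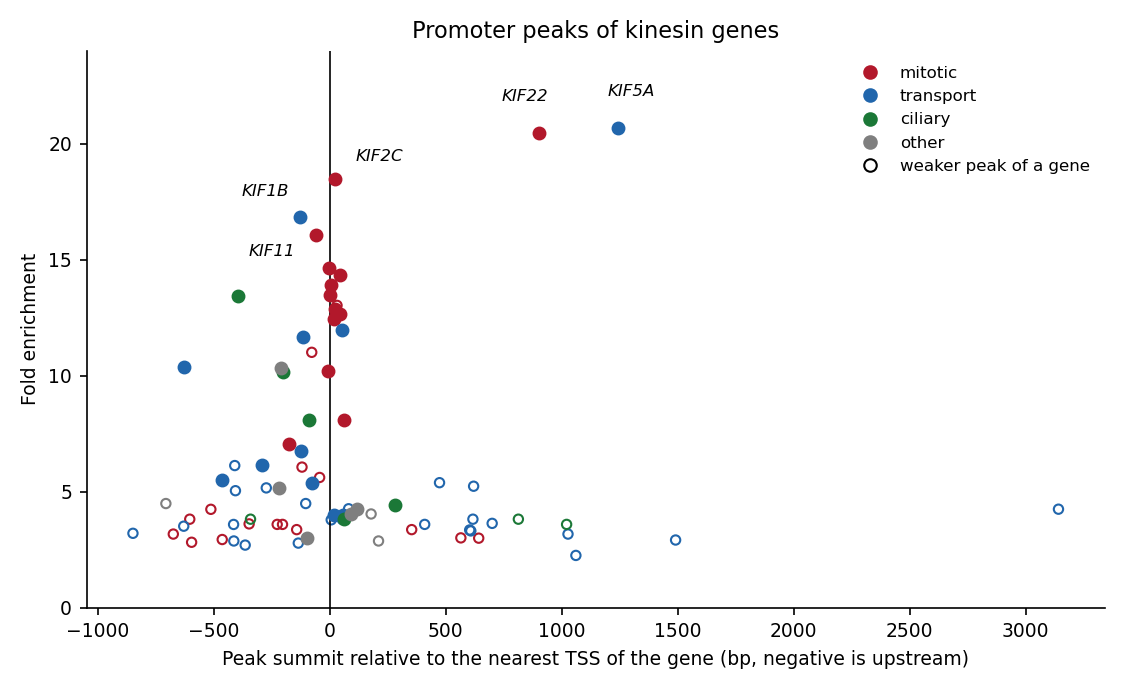
Each point is 1 promoter peak of a kinesin gene, by the position of its summit relative to the nearest TSS of that gene (bp) and its fold enrichment, with filled points for the best peak of a gene. Filled mitotic points cluster beside the TSS, and the strongest points of KIF22 and KIF5A lie 900 and 1241 bp downstream of it.

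The strongest transport value belonged to a peak at a neighbouring gene. KIF5A, a neuronal heavy chain of conventional kinesin, was given a peak on chr12:57940505-57941272 with a fold enrichment of 20.7 (17.1 to 24.7) and a pileup of 116 (95.9 to 139) over a background of 4.66. Its summit lay 43 bp from the TSS of DCTN2, which codes for a dynactin subunit, 1241 bp from the nearest KIF5A TSS and 2777 bp upstream of the canonical one. No other peak lay within the KIF5A gene. KIF5C, the other mainly neuronal heavy chain, had no promoter peak, and 1 weak peak of 2.82 lay in its 250 kb gene. KIF5B, the heavy chain used by most cells, had a peak of its own on chr10:32344381-32345969 with 12.0 (9.08 to 15.5), a pileup of 55 (41.4 to 71.6), a background of 3.67 and a summit 52 bp inside the gene. The CHR of KIF5B, printed above, was 187 bp from that summit.

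The carriers of synaptic vesicle precursors were split. KIF1A had no peak within its promoters, although these were drawn from 42 annotated start sites, and none anywhere in the gene (chr2:241653178-241763710, 111 kb). KIF1B, its relative, had one of the strongest kinesin peaks, on chr1:10269896-10272170, with 16.8 (13.3 to 21.1), a pileup of 74 (58.1 to 92.9) over a background of 3.45 and a summit 130 bp upstream of its TSS. The NF-Y boxes printed for KIF1B begin 157 and 126 bp upstream of the same TSS. KIF1C, which carries vesicles and messenger RNAs in many cell types, had 5.50, with the summit 39 bp from the TSS of INCA1 and 467 bp from its own. KIF13A and KIF13B, vesicle motors of the same family, had 4.02 and no promoter peak, and KIF16B, which moves early endosomes, had 6.74.

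The heterotrimeric kinesin motor, which drives transport in cilia and along axons, showed unequal promoters. KIF3B had 11.7 (8.96 to 15.0) on chr20:30865152-30865565, with a pileup of 60 (45.8 to 77.2) over a background of 4.22. That summit was 114 bp upstream of KIF3B and 27 bp from the TSS of an lncRNA on the other strand. KIF3A, the subunit that pairs with either of the others, and KIF3C, which can take the place of KIF3B, had 4.02 (2.50 to 6.16) and 5.39 (3.50 to 7.98), and both intervals lay below that of KIF3B. KIF17, a related motor of dendrites and cilia, had no promoter peak. Among the minus-end transport motors, KIFC2 had 10.4 (7.68 to 13.7) on chr8:145690267-145690974, with a pileup of 47 (34.5 to 62.5) over a background of 3.63. This summit was 12 bp from the TSS of TMEM276, and the peak at the start of KIFC2 itself had only 3.79 (2.30 to 5.94).

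KIFC3, a minus-end motor of epithelial junctions and membrane transport, had many weak peaks in place of a strong one. Its best promoter peak reached 6.14 (4.61 to 8.04) across 5255 bp, and 18 promoter peaks were assigned to its 33 start sites. In all, 66 peaks lay in its gene of 105 kb, a number exceeded by few genes, since 99.7% of protein-coding genes had fewer. KIF1B with 22, KIF11 with 20 and KIF5B with 16 peaks followed among kinesins. The median protein-coding gene held 1.0 peak, and 10 or more were found in 7 of 42 kinesin genes and in 6.40% of all. KIFC3 has 33 start sites over a long gene, and the part of length and start sites in these counts was not tested.

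**Figure D5:**
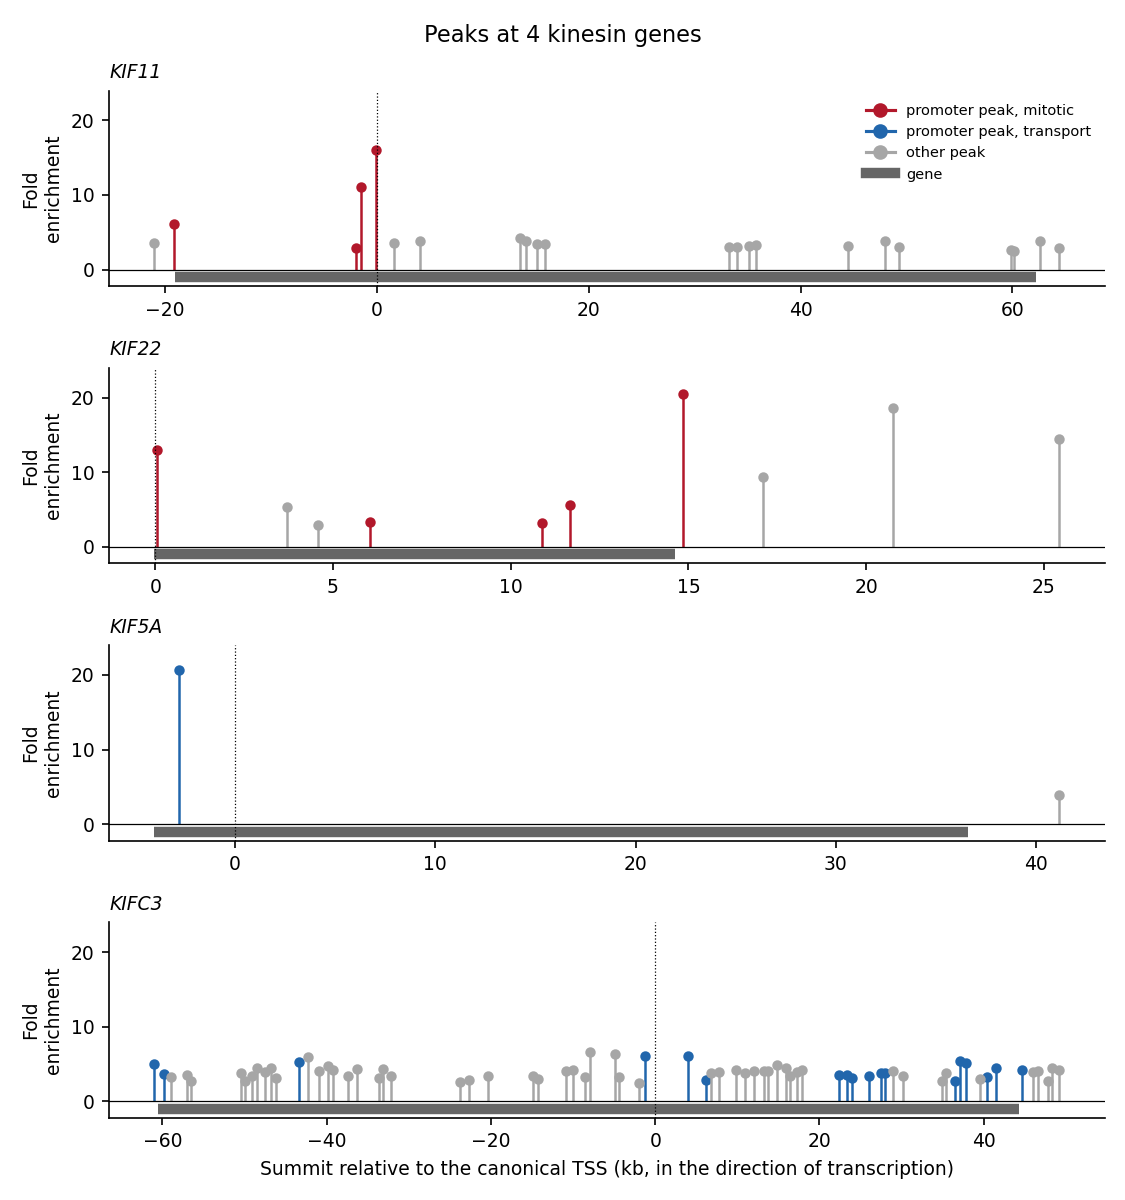
Peaks at KIF11, KIF22, KIF5A and KIFC3 are drawn by the distance of their summits from the canonical TSS (kb) and by fold enrichment, coloured where they were promoter peaks of the gene and grey elsewhere, with the gene as a bar. KIF11 is tallest at its TSS (16.1), KIF22 and KIF5A are tallest beside a neighbouring gene (20.4 and 20.7), and KIFC3 shows many low peaks along its length.

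Ciliary kinesins, all with CpG-rich canonical promoters, were bound in 5 of 6 genes and reached 10 in 2, shares near the 79.2% and 32.7% of CpG-rich genes. KIF24, which restrains cilium formation at the mother centriole in cycling cells, had 13.4 (10.5 to 16.9), with the summit 93 bp from the TSS of NUDT2 and 394 bp from its own. The CHR of KIF24 began 2 bp from its canonical TSS (chr9:34329248-34329277, minus strand), 395 bp from the summit, and is shown as the 1 ciliary promoter with these letters.
KIF24: acagcgcgggcgTTCGAActggcgcttggc

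KIF27, a relative of the Hedgehog regulator KIF7, had 10.1 at its own promoter, 200 bp upstream. KIF9, a motor of motile cilia and sperm, had 8.09 in a promoter shared with KLHL18, 9 bp away. KIF7 and KIF6 had values of 4.44 and 3.82 at internal start sites only, 22217 and 294155 bp from their canonical ones. KIF19, which limits the length of motile cilia, had no promoter peak and no peak in its gene.

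The other kinesins were bound in 5 of 7 genes, between the 59.4% of protein-coding and 79.2% of CpG-rich genes, with a median of 4.25 against 8.67 for all bound genes. KIF2A, a microtubule depolymerase of spindle poles and growing neurites, was the exception at 10.3 (7.60 to 13.8) and held 4 promoter peaks. KIF21A and KIF21B, which regulate microtubule growth in neurons and other cells, had 3.01 and 4.25, KIF25 had 5.17 at an internal start site, and KIF26A, an atypical kinesin, had 4.04. KIF12 and KIF26B had no peak at any promoter or within the gene, and the gene of KIF26B spans 554 kb. The canonical promoter of KIF26B nonetheless held a CHR and an NF-Y box, as its stretch on chr1:245318206-245318286 (plus strand) shows. It also held MYB sites, which the printed stretch does not contain in full.
KIF26B: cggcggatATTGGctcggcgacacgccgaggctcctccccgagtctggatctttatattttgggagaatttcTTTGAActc

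Letters and peaks did not always coincide across the genome either. Protein-coding promoters with a CHR were bound in 49.0% of 2529 cases and those without in 61.8% of 17280. CpG-rich promoters made up 1241 of the 2529 with a CHR and 11953 of the 17280 without. The part of CpG content in this difference was not tested. Among bound genes the median fold enrichment was 9.74 with a CHR and 8.54 without. Of all genes, bound or not, 23.7% with a CHR and 23.4% without reached 10, so that share hardly differed.

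The assignment of shared promoters bears on the comparison. An own TSS was the nearest of all annotated starts to the best summit in 11 of 13 mitotic, 7 of 11 transport and 26 of 34 kinesin genes, against 77.4% of bound protein-coding genes. Another gene of either kind nonetheless started within 1000 bp of the best summit in 8 of 13 mitotic and 4 of 11 transport kinesins, and a protein-coding one in 5 and 3. The matching share of all bound protein-coding genes was not computed. In the 8 genes without an own TSS nearest, KIF22, KIF4A, KIF5A, KIF1C, KIF3B, KIFC2, KIF24 and KIF9, another gene started nearer to the summit, and these libraries cannot tell which of the genes a peak belongs to. With only peaks nearest to an own TSS, a choice made after the data had been seen, 12 mitotic and 8 transport kinesins stayed bound, and 11 mitotic but 2 transport kinesins (KIF1B and KIF5B) reached a fold enrichment of at least 10. Under that rule 51% of protein-coding genes were bound and 16.7% reached 10, so the transport counts were near those shares.

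Proteins that work with each motor class were read in the same way. All 9 genes for partners of mitotic kinesins had a promoter peak, with a median of 14.1, and 7 reached 10, against 59.4% bound and 23.1% at 10 among protein-coding genes and 79.2% and 32.7% among CpG-rich ones. PRC1, the bundler of central spindle microtubules that binds KIF4A, was strongest at 23.4 (19.1 to 28.3), and ECT2, the exchange factor recruited by centralspindlin, was weakest at 7.56. Adaptors and light chains of transport kinesins were bound in 15 of 19 genes, with a median of 10.6, and 8 reached 10, and their bound share was close to that of CpG-rich genes. KLC1, a light chain of conventional kinesin, was highest at 24.7 (20.3 to 29.8), with its summit on the TSS of COA8 and 1067 bp from its own. KIFAP3, the subunit that joins cargo to the KIF3 motors, was lowest at 2.86, and KLC3, TRAK1, MAPK8IP1 and MAPK8IP2 had no promoter peak.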

How the data were processed

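MYBL2 ChIP-seq of A673 cells was available as 1 peak list made from 1 ChIP and 1 input library. The study's methods state alignment of the single-end reads to hg19 and narrow peak calling with the input as control. The submitters' processing notes name Bowtie2 2.1.10 and MACS2 2.0.10. The deposited columns are a score, a fold enrichment (linear ratio), −log10 p and −log10 q, and the summit offset, which the authors' caller wrote. What the cleaning named in the list removed is not given in the sources used here.

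Fragment pileups were solved from the deposited fold enrichment and −log10 p (largest misfit 3.49e-05), with a background floor of 3.45 fragments. With an assumed genome of 2700000000 bp and fragments of 164 bp, this floor corresponds to about 56800000 ChIP reads. Intervals are exact Poisson at 95% for the pileup, with the background held fixed. Start sites were from GENCODE 44 on GRCh37 (193733 sites, genes of 1 symbol merged), and promoters were 1000 bp either side. Motif windows were taken around canonical start sites of GRCh37 so that builds were not mixed. RefSeq promoter sequences (GRCh38.p14), used for letters alone, matched 11 transport and all 14 mitotic kinesins and gave a CHR in 1 and 10 of them.

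Members and lists were chosen with earlier results of these data known. KIF11, KIF20A, KIF23, KIF1A, KIF5A and the 5 strongest mitotic and 5 strongest transport genes were described in full, the others by fold enrichment, and from partner and dynein lists the extremes and the genes without a peak. No test was possible with 1 library a group. Alternatives were 8 planned choices of threshold, window, overlap and start site and 1 added later (own TSS nearest). Peak assignment and pileup recovery were tested on simulated data. Python 3.11.15, pandas 2.3.3, scipy 1.17.1, pysam 0.24.0 and samtools 1.23.1 were used.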

Additional observations from a re-analysis of the deposited data

How the results depend on the processing

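The median of the mitotic list stayed above that of the transport list under all 9 alternatives, and all counts but 1 stayed within 1.5 times the reported ones. With only peaks nearest to an own TSS, a choice added after the data were seen, transport kinesins with a fold enrichment of at least 10 went from 5 to 2. With peaks of fold enrichment of at least 5 only, the median of bound transport kinesins rose from 6.74 to 10.4 (9.66 for all bound genes), since by construction its weak peaks were removed, and the difference of medians narrowed from 6.74 to 3.10. Under the other alternatives that difference was between 6.14 and 7.49. KIF5A lost its promoter peak with the 500 bp window, the summit rule, the rule of 50% overlap, the canonical TSS and the nearest-TSS rule. No unbound kinesin gained a peak, and 27 of 34 members kept one with fold enrichment of at least 5. At the outermost TSS, KIF11 had 6.06 and KIF22 had 13.03. At the wider upstream window KIF18A had 13.6. No paired analysis was possible because only 1 library was made of each kind, and leaving 1 out was not possible either. Weak peaks such as that of KIF21A, with a pileup of 13 (6.92 to 22.2), are limited by depth, and a gene without a peak was not detected rather than shown to be unbound.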

Other observations

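Dyneins, the motors that move along microtubules in the direction opposite to most kinesins, were read from lists fixed with the kinesin lists. Cytoplasmic dynein genes, whose products position the spindle and carry cargo in most cells, had a promoter peak in 11 of 13 cases, with a median fold enrichment of 10.4, and 6 reached 10. All 13 had CpG-rich canonical promoters, and among such protein-coding genes 79.2% were bound and 32.7% reached 10. DYNC1I2, an intermediate chain, was strongest at 22.1 (18.3 to 26.4) from a pileup of 117, with its summit 14 bp from the TSS. DYNLT3, a light chain, was weakest at 3.94, and DYNC1I1, a mostly neuronal intermediate chain, and DYNLRB2 had no promoter peak.

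Axonemal dynein genes, which power the beat of motile cilia, had a promoter peak in 5 of 16 cases, and 0 reached 10, against 59.4% bound and 23.1% at 10 among protein-coding genes and 22.2% and 4.87% among CpG-poor ones. DNAH2 was highest at 6.67 and DNAH3 lowest at 4.72, with its summit 1 bp from the TSS of LDAF1. DNAH1, DNAH6, DNAH7, DNAH8, DNAH10, DNAH11, DNAH12, DNAH14, DNAH17, DNAI2 and DNALI1 had none. CpG-rich canonical promoters were found in 8 of these 16 genes, and the part of this in the result was not tested.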
